A study of Mus musculus with 8 samples.

Results

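Receptors for dying cells and the soluble bridges that tether such cells to them were followed across dendritic cells sorted from mouse thymus. The 10 genes were chosen by name: the receptor tyrosine kinases Axl, Mertk and Tyro3, their ligands Gas6 and Pros1, the receptors Timd4, Havcr2, Clec9a and Cd36, and the bridge Mfge8. On the array 11 probes carried them, 2 for Tyro3 and 1 for every other gene. All 10 genes entered the comparisons, among 24148 genes or accessions tested in all.

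The study, on CD40 in the maturation of thymic dendritic cells and in regulatory T cell development, hybridised Cy3-labelled RNA to 8 arrays of 1 colour. Sorting separated cells by maturation state and by Sirpa, an inhibitory receptor on the cell surface, into Sirpa-positive immature (replicates 3 and 5), Sirpa-positive mature (replicates 1 and 6), Sirpa-negative immature (replicates 4 and 7) and Sirpa-negative mature cells (replicates 2 and 8). The labels give no genotype, strain, age or treatment, do not name the maturation markers used for sorting, and leave unsaid whether each array had its own mouse. Every value below is a log2 signal, meaning the log2 of a probe's processed intensity over the 75th percentile of its own array, so that 0 marks that percentile.

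Most developing thymocytes die inside the thymus, and phagocytes clear them. Dying cells expose phosphatidylserine on their surface, which Timd4 and Havcr2 bind directly. Axl, Mertk and Tyro3 reach it through Gas6, and Mertk and Tyro3 also through Pros1, both vitamin K-dependent proteins. Integrins reach it through Mfge8. Clec9a instead binds actin filaments uncovered in necrotic cells, and Cd36 is a scavenger receptor for modified lipids and lipoproteins.

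The 75th percentile itself ranged from 147 to 313 intensity units between arrays, and 52.9% to 65.5% of spots were well above background, with 0 spots saturated. Arrays in row 1 of the slide had shares of 61.9% to 65.5% and those in row 2 of 52.9% to 57.9%, with 1 array of every group per row. The dendritic cell genes Itgax, Flt3, Zbtb46, H2-Ab1, H2-Aa, Cd74 and Ciita were above background in all 4 groups. Flt3 was lower in Sirpa-positive than Sirpa-negative cells, 2.48-fold among immature and 2.47-fold among mature cells. The other 6 did not pass between the subsets. The 8 maturation markers on a list that includes Ccr7 and Cd40 were all higher in mature cells of both subsets. Each group was also read for other cell types. The summed signal of 15 macrophage markers was 481 to 629 times the 75th percentile in Sirpa-positive immature cells, 386 to 408 in Sirpa-positive mature cells, 15.1 to 16.1 in Sirpa-negative immature cells and 17.3 to 20.0 in Sirpa-negative mature cells. Such a sum is set mainly by its brightest genes. In Sirpa-positive immature cells these were the complement genes C1qa, C1qb and C1qc, with mean log2 signals of 7.56, 7.79 and 5.31. Marco, Cd163, Mrc1 and Cd5l lay below the 75th percentile there, and Vsig4 was below background. In these bulk samples, fewer cells of a type and less RNA per cell cannot be told apart.

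More of the 10 genes passed between the subsets than with maturation. Among immature cells, 6 were higher in the Sirpa-positive subset (Axl, Mertk, Gas6, Pros1, Timd4 and Mfge8), 2 were lower (Clec9a and Cd36), and Tyro3 and Havcr2 did not pass. Of all genes tested in that comparison, 11.6% passed in either direction, 7.23% higher and 4.39% lower. The members' median log2 difference was 1.79, beside -0.11 over all genes. Among mature cells, 3 were higher in the Sirpa-positive subset (Axl, Mertk and Pros1) and 2 lower (Clec9a and Cd36), where 5.47% of all genes passed, 3.38% higher and 2.10% lower. The median was 0.36 over the members and -0.07 over all genes. A gene passed at a Benjamini-Hochberg adjusted p under 0.05 in limma, fitted over all genes with the 8 arrays in a single model, and all adjusted p below come from it.

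With maturation fewer members passed. In Sirpa-negative cells Axl and Mfge8 rose and 0 members fell, where 16.5% of all genes passed, 9.23% higher and 7.24% lower; the members' median was 0.15 and that of all genes -0.01. In Sirpa-positive cells 0 members rose and Pros1 fell, where 6.89% of all genes passed, 4.35% higher and 2.54% lower; the medians were -0.47 and 0.03. The share of rises among those Sirpa-positive calls was 63.2%, and 50.2% under normexp background correction with quantile normalization. The 4 comparisons share arrays in pairs, so their values are not independent of each other.

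**Figure D1:**
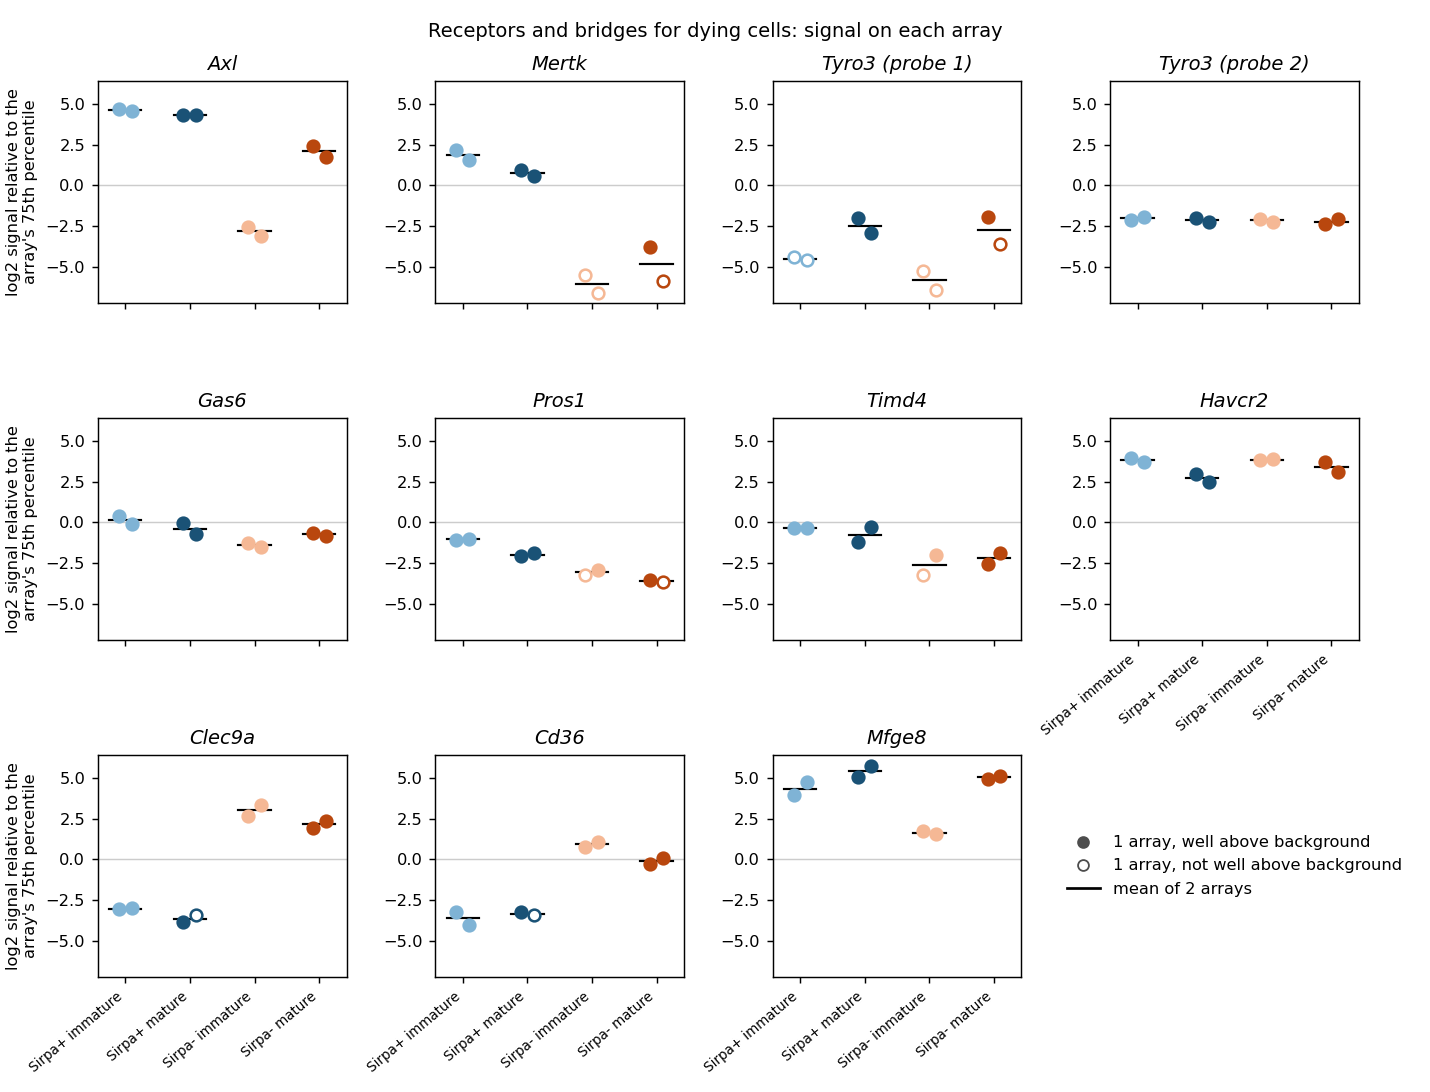
Log2 signal of each probe on each of the 8 arrays (vertical axis, relative to the array's 75th percentile) for the 4 sorted groups, with filled points well above background, open points not, and a line at the mean of the 2 arrays. Axl and Mertk are high on the Sirpa-positive arrays, Clec9a and Cd36 on the Sirpa-negative arrays, and the first Tyro3 probe varies between groups where the second stays between -2.37 and -1.92.

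Axl, a receptor tyrosine kinase that binds Gas6, was high in both Sirpa-positive groups and, on the Sirpa-negative side, higher in mature cells. Its log2 signal was 4.68 and 4.57 on the Sirpa-positive immature arrays and 4.35 and 4.31 on the mature ones. It was -2.54 and -3.11 on the Sirpa-negative immature arrays and 2.40 and 1.77 on the mature ones. No groups overlapped, and the order ran from Sirpa-positive immature through Sirpa-positive mature and Sirpa-negative mature to Sirpa-negative immature cells. Maturation raised Axl 29.9-fold in Sirpa-negative cells (4.90 ± 0.288, SE, n = 2 arrays per group, adjusted p = 0.000363). In Sirpa-positive cells the difference was -0.30 ± 0.288 (adjusted p = 0.653, 95% interval -0.97 to 0.38). The subset difference was 174-fold among immature cells (7.45 ± 0.288, adjusted p = 2.6e-05) and 4.74-fold among mature cells (2.25 ± 0.288, adjusted p = 0.00483).

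The maturation effect on Axl was 5.20 ± 0.407 larger in Sirpa-negative than in Sirpa-positive cells, a 36.8-fold difference between the effects. That test missed the threshold at adjusted p = 0.0688. No gene had a lower value, but it was a tied one that other genes, Irf4 among them, shared with Axl. The unadjusted p for Axl was 3.08e-06. The Axl test passed in 7 of 18 alternatives. Over all genes and over the members 0 differences of this kind passed in limma (0% in either direction, 0% higher and 0% lower), while 1946 genes (8.06%) had an unadjusted p under 0.05. Among those were 5 members, namely Axl, Mertk, Gas6, Cd36 and Mfge8. Thymocyte markers, which stand for another cell type of the organ, moved beside the Axl rise: 12 of 16 were higher in Sirpa-negative mature than immature cells, with summed signals of 51.9 to 59.0 against 16.0 to 16.6. Tcf7 rose most on that list (12.3-fold), and 4 of the 16 did not pass. In Sirpa-positive maturation, where Axl did not rise, 5 of 16 were higher and 0 lower. The summed signals there were 56.5 to 61.1 against 42.5 to 48.2. Cd4 was the brightest gene of the list in both Sirpa-positive groups, with mean log2 signals of 4.90 when immature and 4.19 when mature. Its difference did not pass, and every other listed gene differed upward, so these sums understate the rise of the others. The list's median difference was 0.79 in Sirpa-positive and 1.45 in Sirpa-negative maturation. Other lists moved in Sirpa-negative maturation as well. Of 4 tested stromal and endothelial markers 2 were higher and 0 lower, with summed signals of 13.8 to 17.9 against 3.60 to 4.45. Thy1, which is also on the thymocyte list, was among them. Of 6 tested thymic epithelial markers 2 were higher and 0 lower, and of 8 type 2 dendritic cell markers 2 were higher and 2 lower. Of 14 tested macrophage markers 4 were higher and 1 lower in Sirpa-negative maturation. Vsig4, C1qc, Cd163 and Mrc1 were below background on both Sirpa-negative mature arrays. The same values stand beside the rise of Mfge8 described next, and the part of other cell types in both rises was not tested.

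Mfge8, the secreted bridge between phosphatidylserine and integrins, was the other member that rose with maturation. Its log2 signal was 3.98 and 4.72 on the Sirpa-positive immature arrays, 5.08 and 5.70 on the Sirpa-positive mature arrays, 1.72 and 1.56 on the Sirpa-negative immature arrays and 4.91 and 5.13 on the Sirpa-negative mature arrays. The Sirpa-negative immature arrays were low and the other 6 high, and the mature groups of both subsets overlapped. It rose 10.4-fold in Sirpa-negative cells (3.38 ± 0.318, adjusted p = 0.00109). In Sirpa-positive cells the difference was 1.05 ± 0.318 (adjusted p = 0.11), which passed in 3 of 18 alternatives. Among immature cells Mfge8 was 6.52-fold higher in the Sirpa-positive subset (2.71 ± 0.318, adjusted p = 0.00175). Among mature cells the subset difference was 0.37 ± 0.318, with a 95% interval from -0.38 to 1.11. Its maturation effect was 2.34 ± 0.450 larger in Sirpa-negative cells, which did not pass (adjusted p = 0.132) except in 3 of 18 alternatives.

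The promoters of Axl and Mfge8 are shown because these members were the ones that rose together in Sirpa-negative maturation. Each is the 250 bases before the start site in RefSeq's GRCm38.p6 annotation, written 5′ to 3′ on the gene's own strand, with matches to the GC box GGGCGG (or CCGCCC, its reverse complement) in capitals.
Axl, chr7:25788734-25788983, minus strand: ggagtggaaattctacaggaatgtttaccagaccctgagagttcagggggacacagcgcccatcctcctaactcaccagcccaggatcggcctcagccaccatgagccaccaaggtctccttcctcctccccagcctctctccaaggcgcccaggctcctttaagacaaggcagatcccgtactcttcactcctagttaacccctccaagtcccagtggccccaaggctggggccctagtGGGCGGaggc
Mfge8, chr7:79149061-79149310, minus strand: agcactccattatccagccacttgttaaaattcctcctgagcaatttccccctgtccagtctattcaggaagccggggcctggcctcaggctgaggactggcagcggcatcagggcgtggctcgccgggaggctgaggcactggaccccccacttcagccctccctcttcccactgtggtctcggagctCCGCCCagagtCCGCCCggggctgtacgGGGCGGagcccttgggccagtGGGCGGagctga
Axl had 1 match, at positions -10 to -5 from the start site, and Mfge8 had 4, of which 2 lay on each strand. Their GC content was 60.0% and 65.2%, against a median of 52.4% over 32851 mouse promoters of this length. A GC box was present in 7 of the 10 members, all but Timd4, Havcr2 and Clec9a, and in 32.7% of all promoters. Both strands were also searched for an NF-kB motif (GGG, any 2 bases, TTTCC, in 1.41% of all promoters) and an interferon response core (GAAA, any 2 bases, GAAA, in 2.98%), and neither set of letters occurred in these windows of the 10 members. The AP-1 letters TGANTCA (6.75%) occurred in Havcr2 alone, and the ETS-IRF composite (GGAA, any 2 bases, GAAA, 2.30%), which can overlap the interferon core, in Timd4 alone. A match describes letters and is not evidence of binding.

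**Figure D2:**
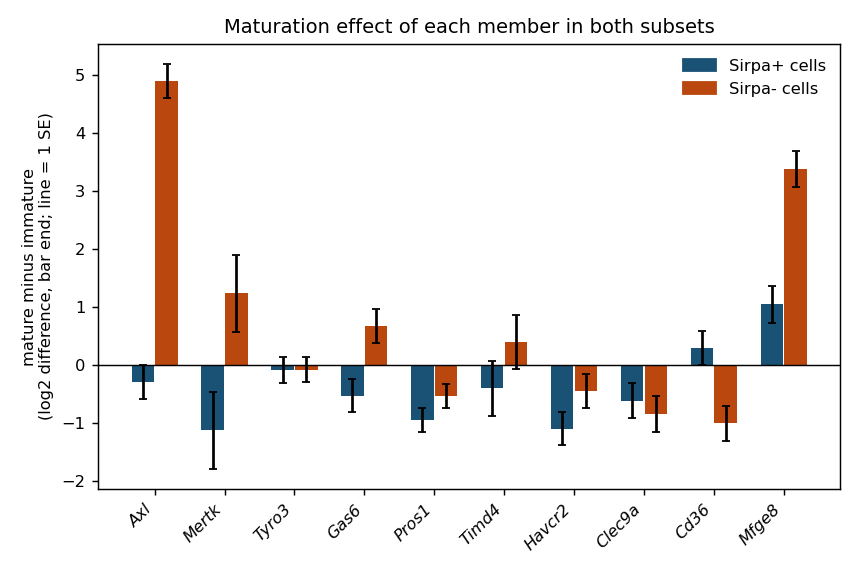
Mature minus immature log2 difference of each member (bar end) with 1 SE (line, from limma) in Sirpa-positive and Sirpa-negative cells, n = 2 arrays per group. Axl stands at 4.90 and Mfge8 at 3.38 in Sirpa-negative cells, beside -0.30 and 1.05 in Sirpa-positive cells.

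Mertk, the receptor tyrosine kinase best known for uptake of dying cells by macrophages, was measured on the Sirpa-positive arrays and barely elsewhere. Its log2 signal was 2.17 and 1.57 on the immature and 0.92 and 0.56 on the mature Sirpa-positive arrays. Both Sirpa-negative immature arrays (-5.48 and -6.62) and Sirpa-negative mature replicate 8 (-5.84) were not well above background, and mature replicate 2 was (-3.79). The Sirpa-positive groups therefore did not overlap with the Sirpa-negative ones, which overlapped with each other. Among immature cells Mertk was at least 53.9-fold higher in the Sirpa-positive subset (fitted difference 7.92 ± 0.666, adjusted p = 0.000417). That bound sets the brighter mean against the lowest signal counted as well above background on each dim array. Among mature cells the fitted difference was 5.56 ± 0.666 (adjusted p = 0.00361), or 47.0-fold, with 1 of 2 Sirpa-negative arrays above background. The slide row that holds that array gave 4.71. Maturation differences were -1.13 ± 0.666 in Sirpa-positive cells (adjusted p = 0.417) and 1.24 ± 0.666 in Sirpa-negative cells (adjusted p = 0.269). The latter passed only without Sirpa-negative mature replicate 8, at 2.26 and adjusted p = 0.0421, and the former passed in 2 of 17 alternatives.

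Tyro3, the remaining kinase of the family, gave different answers from its 2 probes. The brighter one, which stood for the gene, lay between -2.37 and -1.92 on all 8 arrays and overlapped between all groups. Its differences ranged from -0.09 to 0.11 with SE 0.22, and the widest 95% limits over the 4 comparisons were -0.61 and 0.62. The other probe was not well above background on the Sirpa-positive immature arrays (-4.39 and -4.59) or the Sirpa-negative immature arrays (-5.22 and -6.40). It reached -2.01 and -2.94 in Sirpa-positive mature cells and -1.94 and -3.58 in Sirpa-negative mature cells, the last again not above background. Tested singly, that probe was at least 2.17-fold higher in mature than immature Sirpa-negative cells, with 1 of 2 mature arrays above background. Its fitted difference there, 3.05 ± 0.616 (adjusted p = 0.0177), rests on signals below background on 3 of the 4 arrays. In Sirpa-positive cells the fitted difference was 2.01 ± 0.616 and did not pass (adjusted p = 0.112). The probes carry the same transcript accession and the files hold no probe sequence, so the direction for Tyro3 depends on the probe.

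Both ligands of these kinases were higher in Sirpa-positive immature than in Sirpa-negative immature cells. Gas6, which binds each of the 3 receptors, had log2 signals of 0.41 and -0.09 (Sirpa-positive immature), -0.06 and -0.70 (Sirpa-positive mature), -1.29 and -1.51 (Sirpa-negative immature) and -0.65 and -0.81 (Sirpa-negative mature). The Sirpa-negative immature arrays were the lowest and stood apart, and the other groups overlapped with their neighbours in rank. Among immature cells the difference was 2.95-fold (1.56 ± 0.287, adjusted p = 0.013). It was lost without Sirpa-positive immature replicate 3 (adjusted p = 0.109) or Sirpa-negative immature replicate 7 (0.0681), and with dim probes kept in the test (0.0547). Among mature cells the difference was 0.35 ± 0.287 (adjusted p = 0.673), and maturation differences were -0.53 in Sirpa-positive and 0.67 in Sirpa-negative cells, neither of which passed.

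Pros1, or protein S, a ligand of Tyro3 and Mertk, ordered the 4 groups without overlap. It read -1.06 and -1.01 on the Sirpa-positive immature arrays, -2.06 and -1.90 on the Sirpa-positive mature, -3.24 and -2.89 on the Sirpa-negative immature and -3.56 and -3.63 on the Sirpa-negative mature arrays. In each Sirpa-negative group 1 of 2 arrays was well above background. It was 4.08-fold higher in Sirpa-positive than Sirpa-negative immature cells (2.03 ± 0.206, adjusted p = 0.000916) and 3.06-fold among mature cells (1.61 ± 0.206, adjusted p = 0.0048). In Sirpa-positive maturation Pros1 fell 1.93-fold (-0.95 ± 0.206, adjusted p = 0.0391), the only member called there. That call held in 7 of 17 alternatives. It was lost with the slide row as a block (adjusted p = 0.0834), quantile normalization (0.0532), dim probes kept (0.147) and trended variances (0.0944). It was also lost without Sirpa-positive immature replicate 3 (adjusted p = 0.178) or 5 (0.208), without Sirpa-positive mature replicate 1 (0.131) or 6 (0.123), and without Sirpa-negative mature replicate 2 or 8 (0.0559 each). In Sirpa-negative cells its difference was -0.53 ± 0.206 (adjusted p = 0.133).

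Timd4, a phosphatidylserine receptor of tissue macrophages, was also higher on the Sirpa-positive side. Its log2 signal was -0.37 and -0.34 (Sirpa-positive immature), -1.22 and -0.31 (Sirpa-positive mature), -3.20 and -1.99 (Sirpa-negative immature) and -2.55 and -1.86 (Sirpa-negative mature). Sirpa-negative immature replicate 4 was not well above background, the maturation states overlapped within each subset, and the subsets did not overlap. Among immature cells the subset difference was 4.72-fold (2.24 ± 0.471, adjusted p = 0.0229). It passed in 13 of 17 alternatives, and was lost without Sirpa-positive immature replicate 3 (adjusted p = 0.123) or 5 (0.105) or Sirpa-negative immature replicate 4 (0.0936), and with dim probes kept (0.0809). Among mature cells the difference was 1.44 ± 0.471 (adjusted p = 0.165), which passed with title numbers as a block (0.0463). No maturation difference passed (-0.41 and 0.39).

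Macrophage markers moved with Axl, Mertk, Gas6, Pros1, Timd4 and Mfge8 between the immature subsets. Of these 6 members, Gas6, Timd4 and Mfge8 did not pass between the mature subsets (adjusted p = 0.673, 0.165 and 0.697 in limma). Of 14 tested macrophage markers, 13 were higher in Sirpa-positive than Sirpa-negative immature cells and 0 lower. Among mature cells 9 were higher and 0 lower. Adgre1, the F4/80 antigen, was 34.5-fold higher among immature cells and 39.1-fold among mature cells. In Sirpa-negative immature cells Vsig4, C1qc, Cd163, Mrc1 and Cd5l were below background on both arrays, and in the Sirpa-positive groups Vsig4 alone was. Of 8 type 2 dendritic cell markers, a list that includes Sirpa, 7 were higher in Sirpa-positive immature and 4 in Sirpa-positive mature cells and 0 lower. Of 4 tested stromal and endothelial markers 3 were higher among immature cells and 0 among mature cells, with summed signals of 12.4 to 13.6 against 3.60 to 4.45 in the immature groups. Among those 3 was Thy1 (1.74-fold), which is on the thymocyte list as well and counts in these sums. The part of these cell types in the subset differences of these 6 members was not tested.

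Havcr2, known as Tim-3, a checkpoint receptor that is also found on dendritic cells, lay above the 75th percentile on every array. It read 3.95 and 3.72 on the Sirpa-positive immature arrays, 3.0 and 2.47 on the Sirpa-positive mature, 3.80 and 3.86 on the Sirpa-negative immature and 3.69 and 3.07 on the Sirpa-negative mature arrays. The Sirpa-positive mature arrays were the lowest and did not overlap with any other group. Among immature cells the subset difference was 0.00 ± 0.287, with a 95% interval from -0.67 to 0.68. In Sirpa-positive maturation it stood -1.10 ± 0.287 (adjusted p = 0.0701), which passed in 5 of 18 alternatives. The other differences were -0.45 in Sirpa-negative maturation (adjusted p = 0.35) and -0.65 between mature subsets (adjusted p = 0.323).

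Clec9a and Cd36 were the members that were higher in Sirpa-negative cells. Clec9a, the lectin receptor with which type 1 dendritic cells recognise necrotic cells, had log2 signals of 2.65 and 3.35 in Sirpa-negative immature and 1.93 and 2.38 in Sirpa-negative mature cells. On the Sirpa-positive arrays it read -3.02 and -3.00 when immature and -3.86 and -3.40 when mature, the last not well above background. No groups overlapped. Clec9a was 64.6-fold lower in Sirpa-positive immature cells (-6.01 ± 0.307, adjusted p = 5.65e-05) and 55.1-fold lower in Sirpa-positive mature cells (-5.78 ± 0.307, adjusted p = 0.000119). Maturation differences were -0.85 ± 0.307 in Sirpa-negative cells (adjusted p = 0.11, and 0.0444 with title numbers as a block) and -0.62 ± 0.307 in Sirpa-positive cells (adjusted p = 0.321).

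Cd36 read 0.78 and 1.07 on the Sirpa-negative immature and -0.26 and 0.09 on the Sirpa-negative mature arrays. On the Sirpa-positive arrays it read -3.23 and -3.99 when immature and -3.22 and -3.42 when mature, the last not well above background. The Sirpa-positive states overlapped and lay below every Sirpa-negative array. It was 23.3-fold lower in Sirpa-positive immature cells (-4.54 ± 0.297, adjusted p = 0.000137) and 9.42-fold lower in Sirpa-positive mature cells (-3.24 ± 0.297, adjusted p = 0.00113). In Sirpa-negative maturation it stood -1.01 ± 0.297 (adjusted p = 0.06), and that difference passed in 5 of 17 alternatives. Type 1 dendritic cell markers moved with both genes: 7 of 7 tested were lower in Sirpa-positive immature cells and 5 of 7 in mature cells. Among them, the chemokine receptor Xcr1 was 52.3-fold lower among immature cells and at least 27.8-fold lower among mature cells. The part of the mix of cells in these differences was not tested.

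The promoters of Clec9a and Cd36 are given because these genes shared that direction. Matches to the TATA box TATAAA (or TTTATA, its reverse complement) and to the GC box are in capitals, in windows cut and written as above.
Clec9a, chr6:129408612-129408861, plus strand: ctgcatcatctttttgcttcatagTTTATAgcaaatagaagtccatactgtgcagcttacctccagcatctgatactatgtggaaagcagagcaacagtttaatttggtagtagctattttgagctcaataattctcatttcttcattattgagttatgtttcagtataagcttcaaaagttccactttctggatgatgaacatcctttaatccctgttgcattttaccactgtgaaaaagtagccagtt
Cd36, chr5:17835897-17836146, minus strand: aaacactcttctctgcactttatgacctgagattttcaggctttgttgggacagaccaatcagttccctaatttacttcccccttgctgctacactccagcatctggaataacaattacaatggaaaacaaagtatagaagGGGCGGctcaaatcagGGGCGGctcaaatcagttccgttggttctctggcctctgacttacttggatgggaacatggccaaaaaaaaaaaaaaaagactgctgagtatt
Clec9a had no GC box, and its TATA letters lay at positions -226 to -221 from the start site on the opposite strand. Of all promoters 12.4% held those letters. Cd36 had 2 GC boxes, at -109 to -104 and at -93 to -88. Their GC content was 35.6% and 43.2%, both below the median of 52.4%.

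**Figure D3:**
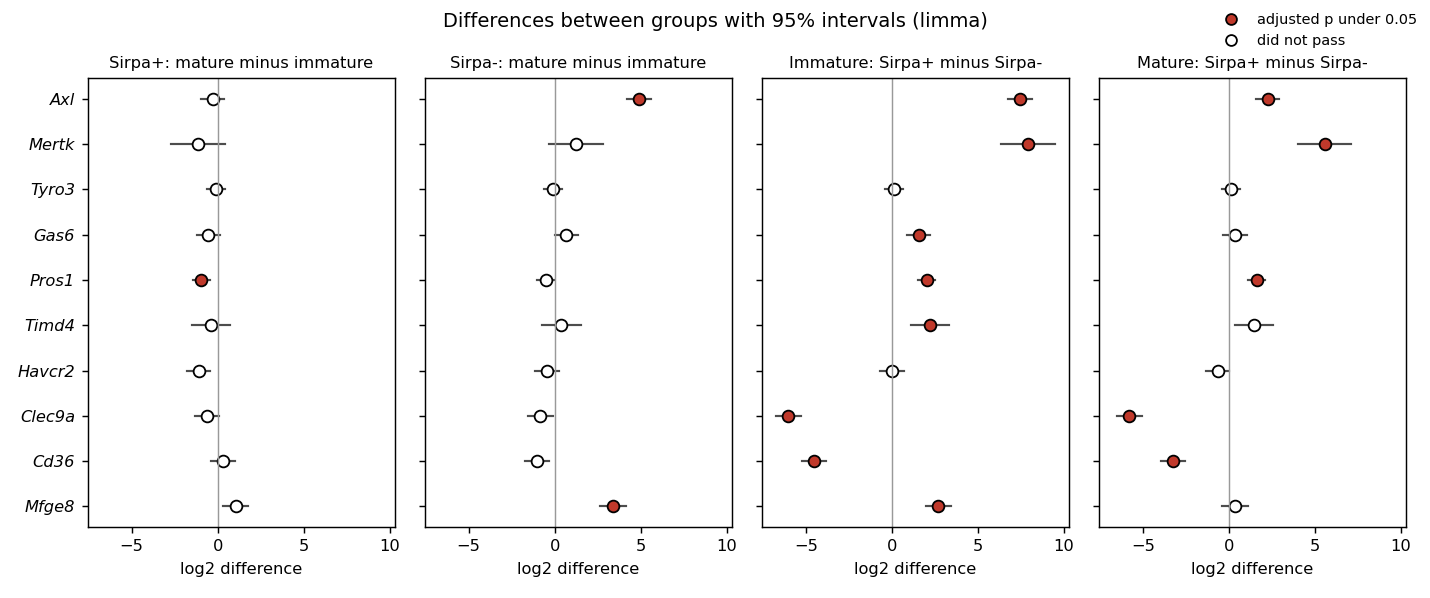
Log2 differences (points) with 95% intervals (lines, from limma) of the 10 members in the 4 comparisons, n = 2 arrays per group, filled where the adjusted p was under 0.05. In the immature subset comparison 8 points are filled, from Clec9a at -6.01 to Mertk at 7.92, whereas 1 is filled in Sirpa-positive maturation.

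Taken within a row of the slide, the called differences varied in size; their direction is fixed, since the groups compared did not overlap. Axl rose by 5.51 in row 1 and 4.30 in row 2 in Sirpa-negative cells, and Mfge8 by 3.36 and 3.41. Timd4 was 1.65 and 2.83 higher in Sirpa-positive immature cells, and Pros1 1.88 and 2.18.

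By the root mean square difference between group means, each centred on its own mean over the 4 groups, 13330 named genes were ranked for likeness to each member. Nearest to Clec9a were Xcr1 (0.31), the Notch receptor gene Notch4 (0.38) and Clnk (0.46). Nearest to Mertk were the chemerin receptor gene Cmklr1 (0.18), the lipid exporter gene Abca1 (0.23) and Npnt (0.29), but on the Sirpa-negative side the Mertk profile rests on signals of which 1 of 4 was above background, so those distances and their order are loose. For Mfge8 they were the adhesion gene Nectin2 (0.09), Car13 (0.11) and Fabp1 (0.13). Axl had no near match, with Apobec1 at 0.84, Dmxl2 at 0.85 and the glutamate transporter gene Slc1a3 at 0.90, against a root mean square of 2.98 for its own profile. The nearest to Cd36 were Dbn1 (0.25), the unconventional myosin gene Myo6 (0.27) and Homer2 (0.29). With 4 points each, these are descriptions, and flat profiles find close matches easily: Tyro3 had Map2k5 at 0.01, Srebf1 and Pigq at 0.02. The remaining nearest genes were Il1rl1, Zfp719 and Fcho2 for Gas6, Mvb12b, Npc1 and Zfp704 for Pros1, Tmem132a, Tmem237 and Msrb1 for Timd4, and Angptl1, Tmem38b and Gpr151 for Havcr2.

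Other genes of the same process were read from 6 lists. Among 20 tested receptors for dying cells other than the members, 13 were higher in Sirpa-positive immature cells and 0 lower, and 8 and 0 among mature cells. Trem2, a lipid-binding receptor of macrophages, was at least 77.7-fold higher among immature and at least 43.6-fold among mature cells. The scavenger receptor Msr1 was at least 40.3-fold and 33.6-fold higher, and Cd300lb at least 25.1-fold and 11.1-fold. The list's median difference was 2.43 among immature cells, beside the members' 1.79. With maturation the scavenger receptor gene Scarb1 fell 2.50-fold in Sirpa-positive and 3.65-fold in Sirpa-negative cells, the only passed receptor in the latter, and Olr1 (3.80-fold, 1 of 2 mature arrays above background) and Lrp1 (2.22-fold) fell in Sirpa-positive cells.

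Of 11 tested bridges and opsonins, 6 were higher and 1 lower in Sirpa-positive immature cells, and 4 and 0 among mature cells. The complement genes led, with C1qa 1062-fold, C1qb 396-fold and C1qc at least 585-fold higher among immature cells, and 385-fold, 267-fold and at least 419-fold among mature cells. They are on the macrophage list as well. Anxa1, a phosphatidylserine-binding protein gene, was 2.97-fold lower in Sirpa-positive immature cells and fell with maturation by 1.84-fold (Sirpa-positive) and 3.27-fold (Sirpa-negative). C4b was higher with maturation in Sirpa-negative cells (1.12 ± 0.304, adjusted p = 0.0465), with no fold given because 1 mature array and neither immature array was above background.

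Engulfment and cargo processing genes passed in both directions, and the list's median was -0.01 among immature cells. Of 26 tested, 5 were higher and 2 lower in Sirpa-positive immature cells, and 3 and 2 among mature cells. The NADPH oxidase gene Cybb was 33.9-fold and 27.9-fold higher, the lysosomal protease gene Ctsl 14.5-fold and 8.11-fold. Dock1, from the same engulfment list, was 12.4-fold higher among immature cells with 1 of 2 Sirpa-negative arrays above background. Wdfy4, needed for cross-presentation, was 3.11-fold lower among mature cells. In Sirpa-negative maturation 5 rose and 3 fell, led by the lysosomal membrane gene Lamp1 (7.97-fold up), Dock1 (4.52-fold up, 1 of 2 immature arrays) and Was (2.45-fold down). In Sirpa-positive maturation Rubcn, a regulator of phagocytosis coupled to autophagy proteins, rose 2.26-fold and Elmo1 fell 1.80-fold.

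Of 13 genes for handling engulfed lipid, 7 were higher in Sirpa-positive immature cells, 0 were lower and 6 did not pass. Among mature cells 5 were higher, 0 lower and 8 did not pass. Apoe was 233-fold and 136-fold higher, the exporter gene Abca1 at least 127-fold and then 44.3-fold (1 of 2 Sirpa-negative arrays), and the nuclear receptor gene Nr1h3 18.9-fold and 14.7-fold. In Sirpa-negative maturation 3 rose and 2 fell, led by Abcg1 (3.23-fold up), Rxra (2.73-fold down) and Lipa (1.87-fold down), and in Sirpa-positive maturation Rxra fell 2.58-fold. Of 9 genes for ligand maturation, receptor shedding and feedback from the Axl family, Socs3 (8.13-fold) and the vitamin K cycle gene Vkorc1 (1.83-fold) were higher and Vkorc1l1 lower (2.32-fold) in Sirpa-positive immature cells. Among mature cells Socs3 (4.59-fold) and Vkorc1 (2.35-fold) were higher, and with maturation 0 passed in Sirpa-positive cells and Vkorc1 fell 2.00-fold in Sirpa-negative cells.

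Among 15 find-me and do-not-eat-me genes, 4 were higher and 1 lower in Sirpa-positive immature cells, and 5 and 1 among mature cells. Cx3cr1, the fractalkine receptor gene, was 143-fold and at least 226-fold higher. Sirpa, which defined the sort and is therefore no result, was 114-fold and 28.3-fold higher. P2ry2 was 7.39-fold higher among immature cells with 1 of 2 Sirpa-negative arrays above background, and Cd24a 3.12-fold lower among mature cells. In Sirpa-negative maturation 3 rose and 5 fell, led by Cx3cr1 (at least 2.96-fold down), P2ry6 (3.57-fold down) and Gpr132 (3.36-fold up). In Sirpa-positive maturation Gpr132 rose 3.15-fold and P2ry6 fell 2.49-fold. Elmo2 was not matched on the array and is not analysed here.

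**Figure D4:**
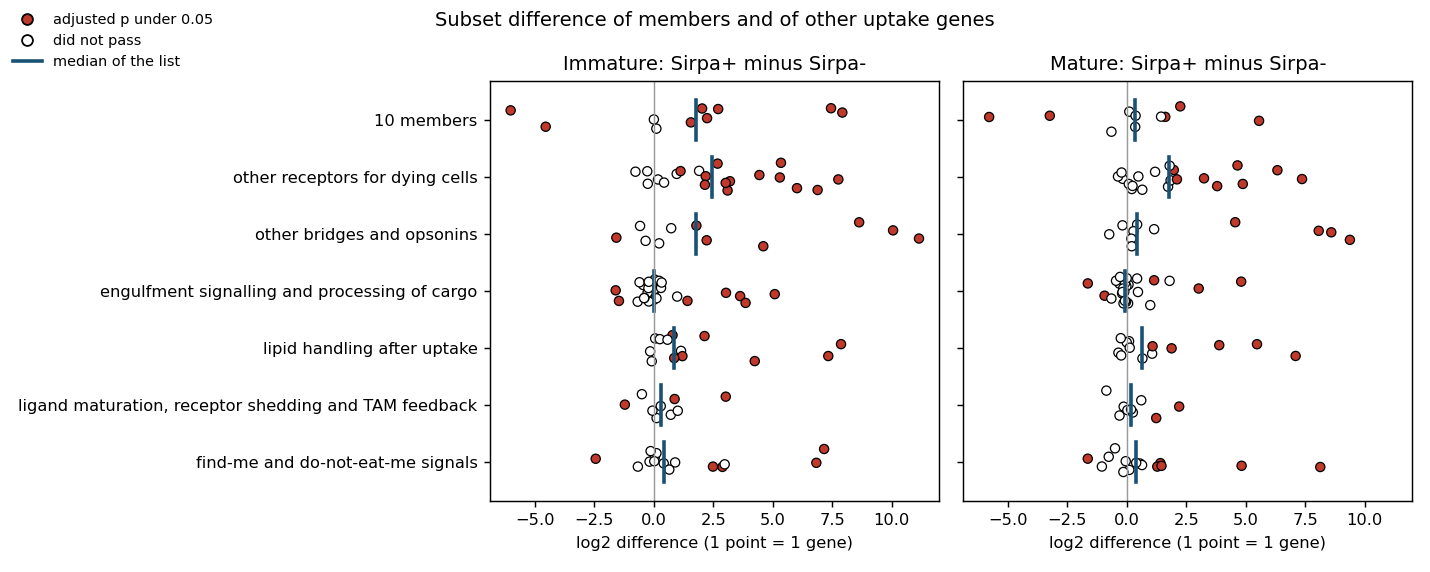
Log2 difference between subsets (Sirpa-positive minus Sirpa-negative) of the 10 members and of each tested gene on 6 lists of the same process, among immature and mature cells; 1 point is 1 gene, filled where limma's adjusted p was under 0.05, and the bar is the list's median. Points shift vertically only to stay apart, and the median is 2.43 for the other receptors and -0.01 for engulfment genes among immature cells.

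**Figure D5:**
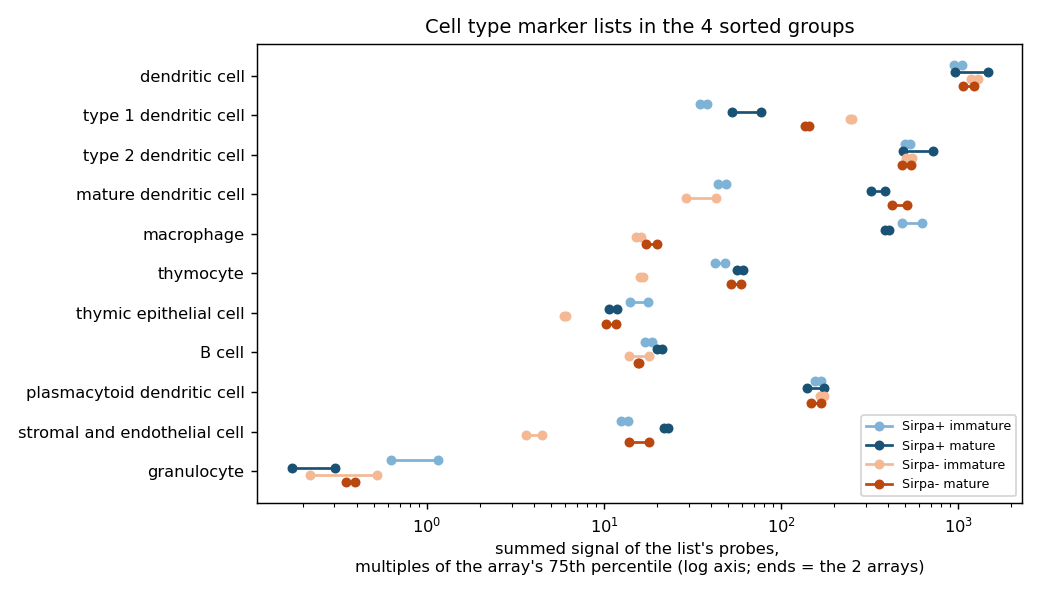
Summed signal of the probes of each marker list in multiples of the array's 75th percentile (log axis) for the 4 groups, with the ends of each line at the 2 arrays. The macrophage list stands at 386 to 629 on the Sirpa-positive arrays and at 15.1 to 20.0 on the Sirpa-negative arrays. Its brightest genes in both Sirpa-positive groups were C1qa and C1qb.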

How the data were processed

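RNA of sorted thymic dendritic cells was read on 8 Agilent arrays, 2 per group. The scanner files hold spot intensity values which, per the file headers, came from Feature Extraction 10.7.3.1, background-subtracted and detrended within each array; the submitters' processing notes give version 10.5. The deposited value table holds log2 values made by the authors with limma, per the submitters' processing notes; a log2 scale was read from the span of its values, and how limma was set is not given in the sources used here. It was used as an alternative.

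Control spots and spots marked as outliers were left out and the spots of a probe averaged, which gave 55681 probes. The log2 processed signal minus each array's 75th percentile was the measurement. Kept were 33689 probes that some group had well above background on each of its 2 arrays. Accessions were named through RefSeq (GRCm38.p6), which gave 26582 probes a symbol; the array header names mm9, so no probe coordinates are printed. The brightest kept probe stood for a gene, which left 24148 genes or accessions. limma 3.58.1 in R 4.3.3 fitted 4 group means to all arrays (4 residual and 3.26 prior degrees of freedom), two-sided, with Benjamini-Hochberg adjustment over all genes at a threshold of 0.05; 95% intervals are per gene. The fit was tested on simulated data. The labels do not say whether arrays of a group are separate mice, so p-values measure the spread between samples only, possibly a technical one, and the number of arrays limits the precision.

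Folds against a group not well above background on either array are lower bounds ("at least"); none is given where the bound fell under 1. The members, the gene lists and the tests were chosen with earlier results of these data known. The naming rule took all 10 members, up to 3 passed genes with the largest change per list and comparison, and the 3 genes nearest each member. Alternatives were normexp (offset 50) on the median pixel signals, since the files hold no mean signal column, with quantile normalization; median and quantile scaling; the authors' values; other filters; the mean of a gene's probes; a block for the slide's row or for title numbers 1 to 4 against 5 to 8; trended and robust variances; and each array left out. The other Tyro3 probe was added after its values were seen.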

Additional observations from a re-analysis of the deposited data

Results flagged for a closer look

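For Axl, both Sirpa-positive mature arrays lay below both immature arrays, while both Sirpa-negative mature arrays lay above both immature arrays. The difference in Sirpa-positive cells did not pass its test (adjusted p = 0.653). The difference between the effects was 5.20 on the log2 scale, from -0.30 in Sirpa-positive and 4.90 in Sirpa-negative cells, and its own test in limma gave adjusted p = 0.0688, which missed the threshold.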

How the results depend on the processing

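No paired analysis was possible because the 4 groups share no replicate number; the slide row and the set of title numbers were fitted as blocks instead. Of the 16 member differences that passed, 13 to 16 still passed under each alternative that tested all 10 members, and 6 of 6 when probes had to be above background on all 8 arrays. The losses were Pros1 in Sirpa-positive maturation, Gas6 and Timd4 between immature subsets, each given with its values above, and Pros1 between mature subsets under normexp (log2 0.54, adjusted p = 0.0662). Tyro3 in Sirpa-negative maturation turned from -0.08 to 1.48 (adjusted p = 0.0269) as the mean of its probes and to 3.05 (adjusted p = 0.0167) from its other probe, chosen after seeing the data.

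Members called in Sirpa-positive maturation, 1 as reported, numbered 4 under normexp with quantile normalization (Mertk, Pros1, Havcr2 and Mfge8) and 4 with the authors' values, 2 with title numbers as a block (Pros1 and Havcr2), 2 with trended and robust variances (Havcr2 and Mfge8), and 0 with quantile normalization, with no filter on dim probes and with the slide row as a block. Calls over all genes, 1664 as reported, moved too. They numbered 2442 under normexp, 2186 with the authors' values, 1984 with title numbers as a block and 2318 with trended variances. With quantile normalization there were 1758, with no filter 430 and with the slide row as a block 1062. For the difference between the maturation effects, 0 as reported, there were 2 under normexp, the authors' values and trended variances (Axl and Mfge8), and 1 (Axl) with median scaling, probes above background on all 8 arrays, the mean of a gene's probes and title numbers as a block; without each array in turn there were 0. Over all genes that difference was called for 176 under normexp, 151 with the authors' values and 186 with trended variances. It was called for 1 with median scaling, 101 with the filter on all 8 arrays, 4 with probe means and 2 with title numbers. Requiring all 8 arrays above background left 5 members tested, of which 3 passed between immature and 1 between mature subsets, and Havcr2 in place of Pros1 in Sirpa-positive maturation. With that filter 2278 genes passed between immature and 1068 between mature subsets. These calls come from a smaller set of genes, so the shares over all genes given above do not apply to them. The cause of these changes was not tested, except that this filter removes genes.

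Over all genes, calls ranged from 394 to 2442 (1664 as reported) in Sirpa-positive maturation, 1615 to 4826 (3977) in Sirpa-negative maturation, 1232 to 3377 (2806) between immature subsets, 579 to 1707 (1322) between mature subsets and 0 to 186 (0) for the difference of effects. Median scaling moved the median difference of all genes from 0.03 to -0.07 in Sirpa-positive and from -0.01 to -0.12 in Sirpa-negative maturation. Signals near background limit what can be said of Mertk in Sirpa-negative cells and of the dimmer Tyro3 probe.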
